A study of Mus musculus with 4 samples.

Results

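Hif1a, Slc2a1, Ldha, Pgk1, Pdk1, Bnip3, Ankrd37, Egln3, Car9 and Ndrg1 are 10 genes of the hypoxia response and of glycolysis, and they were examined across the cell classes of the regenerating mouse digit tip. They were found by symbol among the 33696 genes of the count tables, and 10 of 10 were matched. The data were droplet single-cell RNA-Seq counts, in which a molecular barcode (UMI) marks every captured mRNA, so that copies made by PCR count once. The 4 libraries came from 2 experiments, each with 1 library per condition and 10 pooled mice per library. All mice were female C57BL/6J animals (C57BL/6 in the labels) aged 6–8 weeks. Per the study's methods, the injury was amputation of the distal tip of P3, the terminal phalanx, on hindlimb digits 2 and 4. The tissue, labelled P3, came from hindlimb digits 2–4, which the methods describe as severed at collection through the phalanx above P3. It could thus also hold bone and joint next to P3, and a digit that had not been amputated.

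In the first experiment, mice received chow with SAR131675, an inhibitor of the lymphangiogenic receptor VEGFR3, at 30 mg/kg ("SAR131675 diet"). The other mice had no treatment ("diet control"), and the study describes their food as a control diet. The labelled diet length was 8 days in both groups. In the other experiment, 1 library came from limbs after lymph node removal (LNR) and the other from their control ("LNR control"), which the labels call untreated and the study describes as a sham on the opposite limb, so that the 2 libraries may share animals. The inhibitor was given in the diet and LNR is a surgical model, so neither group carries an engineered allele. The labels make each library a batch of its own, so a batch effect and a treatment effect cannot be told apart here, and without replicates no difference between conditions was tested. All intervals given here cover counting error only.

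Cells sense low oxygen through HIF-1, a pair of proteins of which the alpha subunit, encoded by Hif1a, is hydroxylated by EGLN enzymes and destroyed when oxygen is sufficient. Stabilized HIF-1 binds short hypoxia response elements near genes for glucose uptake, glycolysis, lactate production, pH control and mitophagy, so that these genes often move together, but many of them also have a high basal level in cells that make ATP by glycolysis. HIF1A is controlled mainly as a protein, and its mRNA level is not a measure of its activity.

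The stretches of promoter printed here were chosen to show the core of the hypoxia response element in 4 members whose level peaked in sweat gland-like cells (Slc2a1, Ldha, Pgk1, Bnip3) and in 2 members whose level peaked elsewhere (Ankrd37, Egln3). They are the 250 bases before the annotated start of each gene, from RefSeq on build GRCm38.p6, written 5′ to 3′ on the strand of the gene. Capitals mark ACGTG or GCGTG read on either strand, so that CACGT and CACGC in capitals are the same motifs on the other strand, and matches in CACGTG overlap. Slc2a1 lies on the plus strand at chr4:119108495-119108744, Ldha on the plus strand at chr7:46845554-46845803, Pgk1 on the plus strand at chrX:106186850-106187099, Bnip3 on the minus strand at chr7:138909507-138909756, Ankrd37 on the minus strand at chr8:45999851-46000100 and Egln3 on the minus strand at chr12:54203875-54204124.
Slc2a1: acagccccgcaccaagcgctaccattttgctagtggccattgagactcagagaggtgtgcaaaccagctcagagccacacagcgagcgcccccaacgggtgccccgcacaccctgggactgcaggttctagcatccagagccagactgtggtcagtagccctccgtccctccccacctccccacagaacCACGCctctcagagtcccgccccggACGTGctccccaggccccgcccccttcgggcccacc
Ldha: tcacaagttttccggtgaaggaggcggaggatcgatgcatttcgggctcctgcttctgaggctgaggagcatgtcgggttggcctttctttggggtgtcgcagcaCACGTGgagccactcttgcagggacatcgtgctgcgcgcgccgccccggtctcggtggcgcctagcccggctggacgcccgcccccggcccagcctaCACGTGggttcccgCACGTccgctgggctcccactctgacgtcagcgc
Pgk1: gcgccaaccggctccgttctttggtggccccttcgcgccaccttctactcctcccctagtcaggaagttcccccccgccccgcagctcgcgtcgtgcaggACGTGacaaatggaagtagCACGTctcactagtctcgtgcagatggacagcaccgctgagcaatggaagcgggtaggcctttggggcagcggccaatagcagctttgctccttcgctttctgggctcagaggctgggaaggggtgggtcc
Bnip3: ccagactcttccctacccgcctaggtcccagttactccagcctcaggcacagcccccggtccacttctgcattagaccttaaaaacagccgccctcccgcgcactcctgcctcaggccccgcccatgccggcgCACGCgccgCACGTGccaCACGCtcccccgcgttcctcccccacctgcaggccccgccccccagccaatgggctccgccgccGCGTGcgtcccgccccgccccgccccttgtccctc
Ankrd37: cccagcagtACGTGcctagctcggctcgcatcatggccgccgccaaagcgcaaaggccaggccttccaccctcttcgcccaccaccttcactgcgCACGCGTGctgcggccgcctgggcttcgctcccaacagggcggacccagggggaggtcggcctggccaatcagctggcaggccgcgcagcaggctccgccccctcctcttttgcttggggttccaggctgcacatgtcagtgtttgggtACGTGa
Egln3: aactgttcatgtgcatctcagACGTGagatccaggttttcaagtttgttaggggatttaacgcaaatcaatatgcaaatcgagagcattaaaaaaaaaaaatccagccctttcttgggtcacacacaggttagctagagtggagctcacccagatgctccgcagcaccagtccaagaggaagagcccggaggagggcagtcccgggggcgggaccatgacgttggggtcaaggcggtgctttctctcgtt

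The capitals fell into 4 separate stretches in Bnip3, 3 in Ldha, 3 in Ankrd37, 2 in Slc2a1, 2 in Pgk1 and 1 in Egln3. The nearest one lay 6 bases before the start in Ankrd37 and 229 bases before it in Egln3. RefSeq promoters were matched for 9 of the 10 members, all but Ndrg1, with 11 windows in all, and 10 windows (90.9%) held the motif, the exception being 1 of 2 windows of Pdk1, compared with 38.6% of all 32851 mouse promoter windows. The motif is short, and a match is a run of letters and not a measured binding site. Among the other genes of the pathway it was in 76.3% of 38 windows of hypoxia genes and 75.0% of 32 windows of glycolysis genes.

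The diet pair held more UMIs than the LNR pair, with 448276501 to 585284877 UMIs per library in the former and 168507188 to 175998346 in the latter. After limits on genes, UMIs and mitochondrial share, 19827 to 29076 cells per library were kept, with a median of 10712 to 11316 UMIs per cell in the diet pair and 5725 to 5851 in the LNR pair. In the diet pair, 210 kept barcodes occurred in both libraries, and in the LNR pair 101 did. Levels are given as CPM, the summed UMIs of a gene in a class and library divided by all UMIs of that class and scaled to 1000000, and mean ± SD is over the 4 libraries. In tissue of this kind, CPM describes the makeup of RNA in a class and not the amount of RNA per cell.

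Clusters were named from marker genes, with the members and the other pathway genes left out of the clustering, and 20 classes had at least 50 cells in every library. Statements on the highest, the next or any other class refer to these 20, and smaller classes are given apart. They held 68.6% to 77.6% of the kept cells of a library. The sweat gland-like class, on which most results turn, was small, with 382 cells in SAR131675 diet, 282 in diet control, 69 in LNR and 63 in LNR control. Its defining markers were the simple epithelial keratins Krt8 (598 to 1768 CPM, at most 19.5 in any other class) and Krt18 (1131 to 1864, at most 123 elsewhere), the water channel Aqp5 (638 to 1243, at most 148 elsewhere) and the sodium-potassium-chloride cotransporter Slc12a2 (2843 to 3976, at most 278 elsewhere). Of the other markers on its list, Wfdc18 was as high in granular keratinocyte-like cells, Krt7 was low (18.4 to 47.6 CPM) and Cldn10 was near 0 (0 to 3.18 CPM). The label of sweat gland-like cells thus rests on 4 of 7 markers.

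The class of highest level differed by member, and for 6 of the 10 members 1 class stood apart from all the others. A class stands apart here when its lowest library is above the highest library of every other class, which was the case for 19.0% of the 18645 genes with at least 100 UMIs. Sweat gland-like cells were that class for Hif1a, Slc2a1, Ldha, Pgk1 and Bnip3, and Schwann-like cells for Ndrg1. Sweat gland-like cells led apart 1.59% of all genes. These shares of all genes were not matched for the UMI counts of the members. The count of 6 fell to 0 to 2 of the members where other cell limits, removal of called doublets, thinning to 1500 UMIs, classing cells by their own markers or a single round of clustering left under 50 sweat gland-like cells in an LNR library. In the diet pair alone, where standing apart is easier to meet, 5 or 6 members were led apart by sweat gland-like cells under each of those settings, as were 3.67% to 4.25% of all genes. A single round of clustering left 0 sweat gland-like cells in both LNR libraries. In that pair the class thus rests on the second round, which was decided after seeing values.

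**Figure D1:**
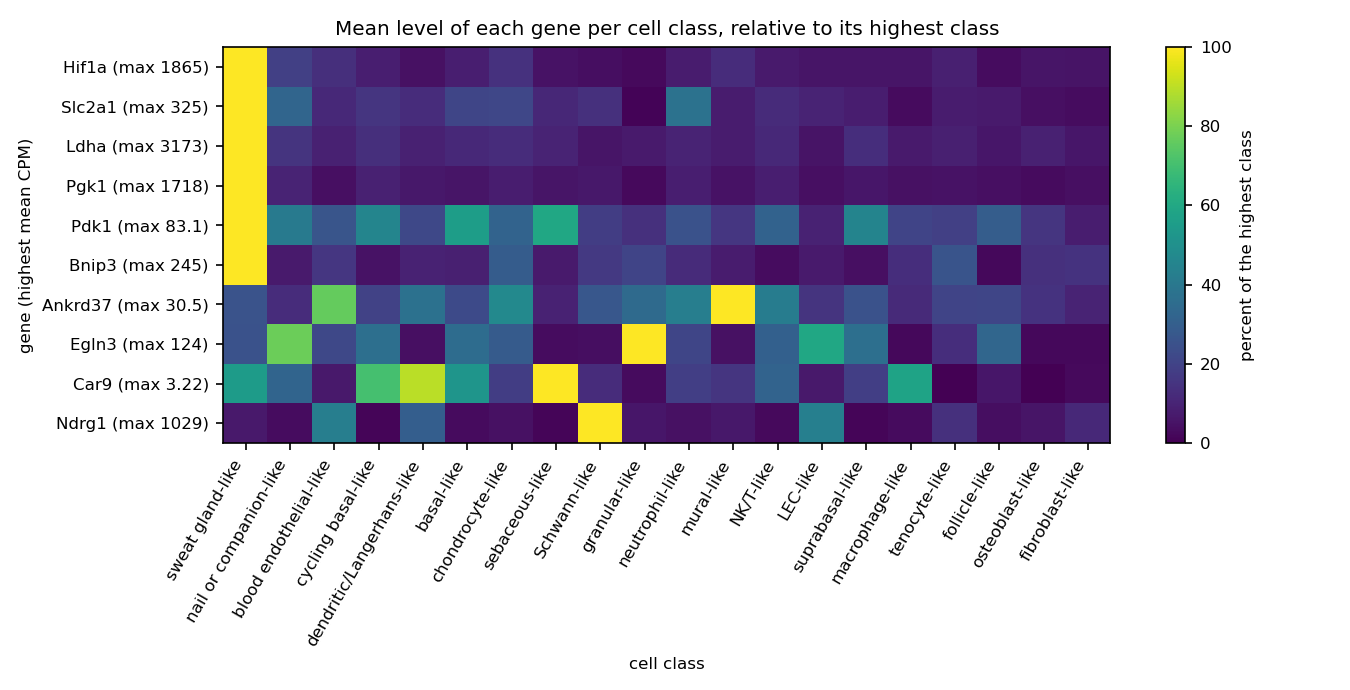
Mean CPM over the 4 libraries of each member (rows, with the highest mean CPM in parentheses) in each of the 20 cell classes (columns), as a percent of the member's highest class on a linear color scale. Hif1a, Slc2a1, Ldha, Pgk1, Pdk1 and Bnip3 share the sweat gland-like column as their maximum, whereas Ndrg1 peaks in Schwann-like, Egln3 in granular keratinocyte-like, Ankrd37 in mural-like and Car9 in sebaceous-like cells.

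Hif1a, the oxygen-regulated subunit of HIF-1, was present in every class and peaked in sweat gland-like cells. Its level there was 1902 CPM (95% interval 1839.7 to 1966) in SAR131675 diet, 2406 (2325 to 2490.0) in diet control, 1382 (1277 to 1493) in LNR and 1768 (1624 to 1921) in LNR control. The mean was 1865 ± 423 CPM (SD, n = 4 libraries), 5.32-fold that of the next class, nail or companion layer keratinocyte-like cells, with 350.2 ± 197 CPM. No library of another class came above 605 CPM. The nail or companion layer keratinocyte-like cells differed between experiments, with 605 and 406 CPM in the diet pair and 205 and 186 CPM in the LNR pair. Granular keratinocyte-like cells had the lowest mean, 46.3 CPM.

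The difference depended on whether a level was read as CPM or as UMIs per cell. Sweat gland-like cells held few UMIs, with a median of 1376 to 2252 per cell, while nail or companion layer keratinocyte-like cells had 7775 to 15234. Under 1500 UMIs lay 43.5% to 52.4% of the former and 0.498% to 7.14% of the latter. UMIs of a gene per cell are means over a class, to which deeper cells add most, and are not to be divided by these medians. Per cell, Hif1a gave 9.23, 11.6, 9.26 and 8.83 UMIs in sweat gland-like cells of SAR131675 diet, diet control, LNR and LNR control. In nail or companion layer keratinocyte-like cells the same 4 values were 8.81, 5.40, 2.03 and 1.62 UMIs, so that in SAR131675 diet the classes nearly met. The mitochondrial share of the summed UMIs of sweat gland-like cells was 3.20%, 3.04%, 5.00% and 4.44% in the same 4 libraries. Sebaceous-like cells had 3.00%, 2.88%, 4.59% and 4.72%, so the share was high in another class too. Over all kept cells the median share per cell, an unlike measure, was 1.73% to 3.22%. The part of depth and mitochondrial share in these levels was not tested.

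Slc2a1 encodes GLUT1, the main glucose importer of many epithelia. Its level in sweat gland-like cells was 361 CPM in SAR131675 diet, 377 in diet control, 221 in LNR and 340.3 in LNR control (325 ± 70.9). Neutrophil-like cells came next with 146, 214, 62.2 and 68.2 CPM in the same order (123 ± 72.0), and the lowest library of sweat gland-like cells, at 221 CPM, lay just above the highest of neutrophil-like cells, at 214. Granular keratinocyte-like cells had 3.30 CPM on average, so that the classes spanned 98.4-fold. In UMIs per cell, nail or companion layer keratinocyte-like cells (2.56 and 1.87) were above sweat gland-like cells (1.75 and 1.82) in SAR131675 diet and diet control, and below them in the LNR pair. The log2 ratio of sweat gland-like cells to the highest other class, 1.40 for Slc2a1, was 1.05 with median-of-ratios scaling and 0.63 with cells thinned to 500 UMIs. The same thinning raised this ratio from 2.41 to 2.91 for Hif1a, from 2.72 to 3.26 for Ldha, from 3.32 to 3.83 for Pgk1 and from 1.79 to 2.26 for Bnip3.

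Pgk1 and Ldha encode phosphoglycerate kinase, which yields ATP in the lower part of glycolysis, and the lactate dehydrogenase subunit that turns pyruvate into lactate. Pgk1 in sweat gland-like cells was at 1429 CPM in SAR131675 diet, 1629 in diet control, 1784 in LNR and 2029 in LNR control (1718 ± 253), 10.0-fold the mean of nail or companion layer keratinocyte-like cells (172 ± 28.0). Ldha there was at 2892, 2875, 3307 and 3619 CPM (3173 ± 358), 6.58-fold the mean of nail or companion layer keratinocyte-like cells (482 ± 59.1). For both genes the lowest library of sweat gland-like cells was well above any library of the other 19 classes, at most 209 CPM for Pgk1 and 554 CPM for Ldha. Among the smaller classes, mast-like cells of the LNR pair had Ldha at 569.8 and 572 CPM, and 24 erythroid-like cells of LNR had Pgk1 at 555 CPM on 30 UMIs. Per cell, sweat gland-like cells also had the most UMIs of both genes in all 4 libraries, 6.93 to 12.0 of Pgk1 and 13.9 to 22.2 of Ldha. Cycling basal keratinocyte-like cells, a far deeper class, had 2.02 to 2.38 UMIs of Pgk1 and 4.94 to 7.05 of Ldha per cell.

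Pdk1, a kinase that shuts pyruvate out of the mitochondrial cycle by inactivating pyruvate dehydrogenase, had its highest mean in the same class, but the class did not stand apart. Sweat gland-like cells had 106 CPM in SAR131675 diet, 109 in diet control, 47.6 in LNR and 70.0 in LNR control (83.1 ± 29.6). Sebaceous-like cells had 49.5, 69.0, 37.1 and 42.7 CPM (49.6 ± 13.9), so the classes overlapped when all libraries were pooled, while within each library sweat gland-like cells were higher. Per cell, sebaceous-like cells had the most Pdk1, with 0.659 to 0.801 UMIs.

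**Figure D2:**
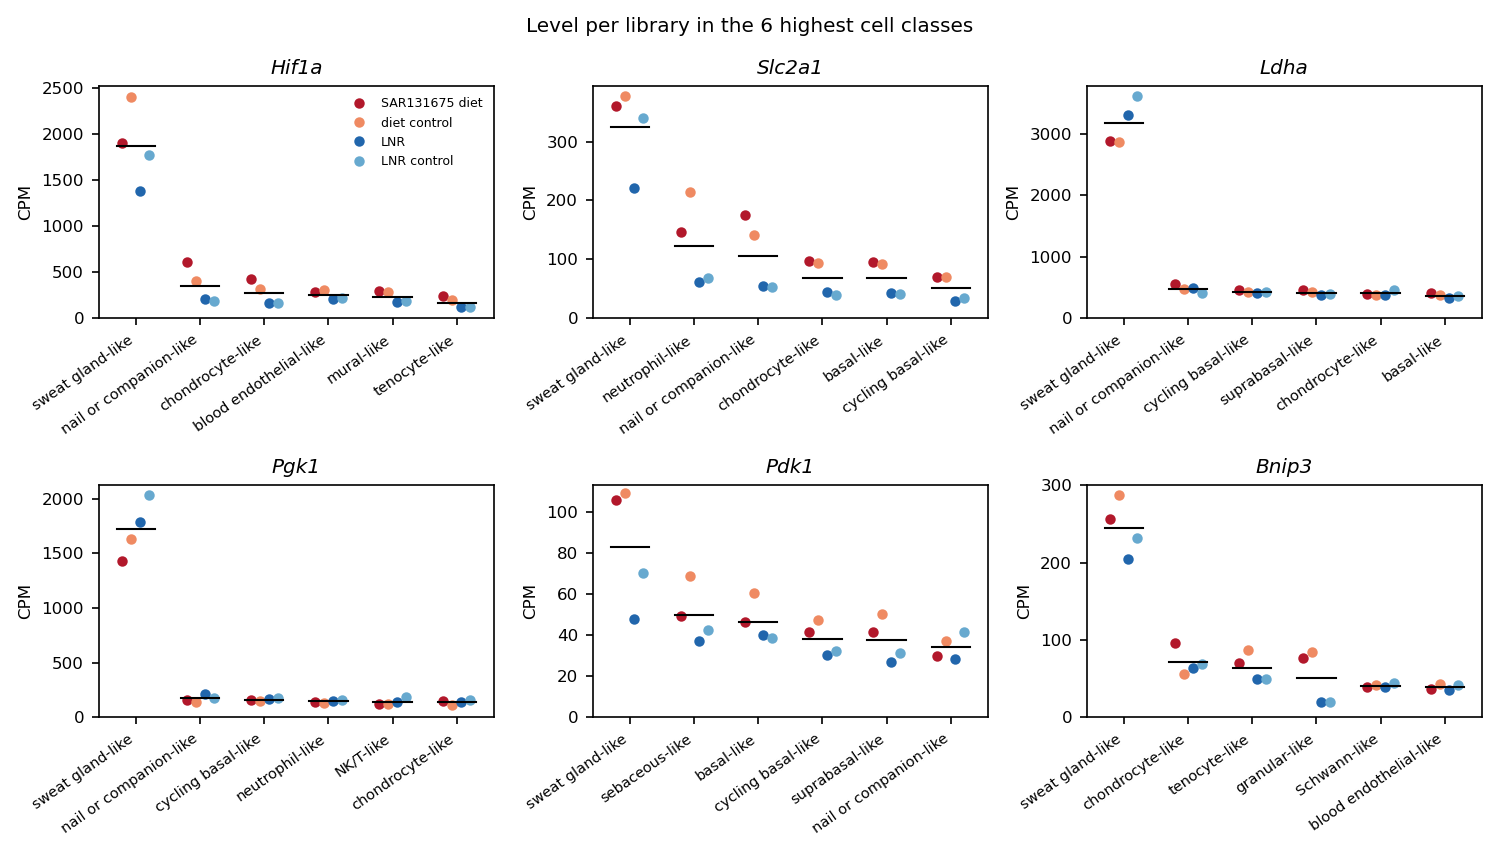
CPM (linear axis from 0) of Hif1a, Slc2a1, Ldha, Pgk1, Pdk1 and Bnip3 in the 6 cell classes with the highest mean, with 1 point per library and a bar at the mean of the 4 libraries. Sweat gland-like points are above all others for every gene but Pdk1, whose LNR value of 47.6 CPM lies within the range of sebaceous-like cells.

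Bnip3 encodes a mitochondrial outer membrane protein that marks mitochondria for mitophagy. In sweat gland-like cells it was at 256 CPM in SAR131675 diet, 287 in diet control, 205 in LNR and 232 in LNR control (245 ± 34.8), 3.45-fold the mean of chondrocyte-like cells, 71.0 ± 17.2 CPM. Chondrocytes live in avascular matrix, and their values of 95.8, 56.4, 63.6 and 68.2 CPM overlapped with those of the classes that followed them. Granular keratinocyte-like cells, among them, split by experiment, with 76.1 and 84.9 CPM in the diet pair and 19.9 and 19.4 CPM in the LNR pair. Per cell they held 1.51 and 1.63 UMIs in the diet pair, more than sweat gland-like cells with 1.24 and 1.39.

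The sweat gland-like class of the LNR pair joined 2 clusters of unlike depth. The shallower cluster, with 31 LNR and 36 LNR control cells and a median of 937 UMIs per cell, had Hif1a at 1932 and 2315 CPM and Ldha at 5132 and 4913 CPM. It held 1 and 2 UMIs of Slc2a1 in all, or 30.2 CPM (0.764 to 168) and 51.4 CPM (6.23 to 186). The deeper cluster, with 38 LNR cells and 27 LNR control cells and a median of 6792 UMIs, had Slc2a1 at 235 CPM in LNR and 381 CPM in LNR control and Hif1a at 1339 and 1691 CPM. The high level of Hif1a was thus in both clusters, and that of Slc2a1 was seen in the deeper one.

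Other genes of glycolysis followed the same class. Of 22 further glycolysis and pyruvate genes, 17 had a class that stood apart (77.3%, against 19.0% of all genes), and for 14 of them it was the sweat gland-like class. These 14 covered the enzymes of the pathway from hexokinase to pyruvate kinase (Hk1, Gpi1, Pfkl, Pfkm, Pfkp, Aldoa, Aldoc, Tpi1, Gapdh, Pgam1, Eno1 and Pkm) and the kinases Pdk2 and Pdk3. The ratios of the leading to the next class were 21.1 for Aldoc and 19.5 for Aldoa, which split the 6-carbon sugar, 16.0 for the isomerase Gpi1, 10.6 for the enolase Eno1, 10.1 for the phosphofructokinase Pfkp, 9.31 for Hk1, 8.86 for Gapdh and 8.74 for Pkm. Several genes of this group have near-identical pseudogenes, and how reads shared with those were handled was not examined.

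Not every glycolysis gene shared that pattern. The neuronal-type transporter Slc2a3 was led by neutrophil-like cells and listed at 0.367 CPM in sweat gland-like cells. Sebaceous-like cells led the lactate carrier Slc16a1, the heart-type lactate dehydrogenase Ldhb, Pdha1 and Pdk4, and NK/T-like cells led Hk2. Summed over the 22 genes, sweat gland-like cells reached 27979.6 CPM in SAR131675 diet, 35607 in diet control, 33515 in LNR and 39980.2 in LNR control, a mean of 3.43% of their UMIs. Nail or companion layer keratinocyte-like cells, the next class, had 0.290%. In UMIs per cell the sums were 136, 172, 225 and 199.6 in sweat gland-like cells and 42.7, 41.7, 27.3 and 24.2 in nail or companion layer keratinocyte-like cells.

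Some hypoxia genes outside glycolysis shared the pattern. Of 33 further hypoxia genes, 7 had a class that stood apart (21.2%, close to the 19.0% of all genes), and 3 of those were led by sweat gland-like cells (9.09% of the 33, against 1.59% of all genes). They were Vegfa, the main endothelial growth factor (258 ± 35.9 CPM, 2.72-fold the next class), Car12, a membrane carbonic anhydrase (1188 ± 89.4, 7.28-fold), and the cytokine Mif (3489 ± 1387, 3.21-fold). The others with high ratios lay elsewhere, the lactate exporter Slc16a3 in neutrophil-like cells (11.4-fold) and the secreted glycoprotein Stc2 in chondrocyte-like cells (10.9-fold). Sweat gland-like cells had the highest mean of any class for 14 of the 22 glycolysis genes, 6 of the 10 members, 6 of the 33 hypoxia genes and 1396 of all 18645 genes (7.49%). The median log2 ratio of sweat gland-like cells over the highest other class was 1.56 for the glycolysis genes, 1.07 for the members, -1.0 for the hypoxia genes and -2.02 for all genes. Summed over the 33 hypoxia genes, sweat gland-like cells were at 6495 CPM in SAR131675 diet, 6633 in diet control, 8464 in LNR and 8993 in LNR control, and tenocyte-like cells at 4986, 5360.3, 3963 and 4035 CPM. Mif made up much of the first sums. Without it, sweat gland-like cells were at 4330.1, 4213, 3852 and 4236 CPM and tenocyte-like cells at 4898, 5283, 3789 and 3873, higher in the diet pair, so that the order of the classes depended on this 1 gene.

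**Figure D3:**
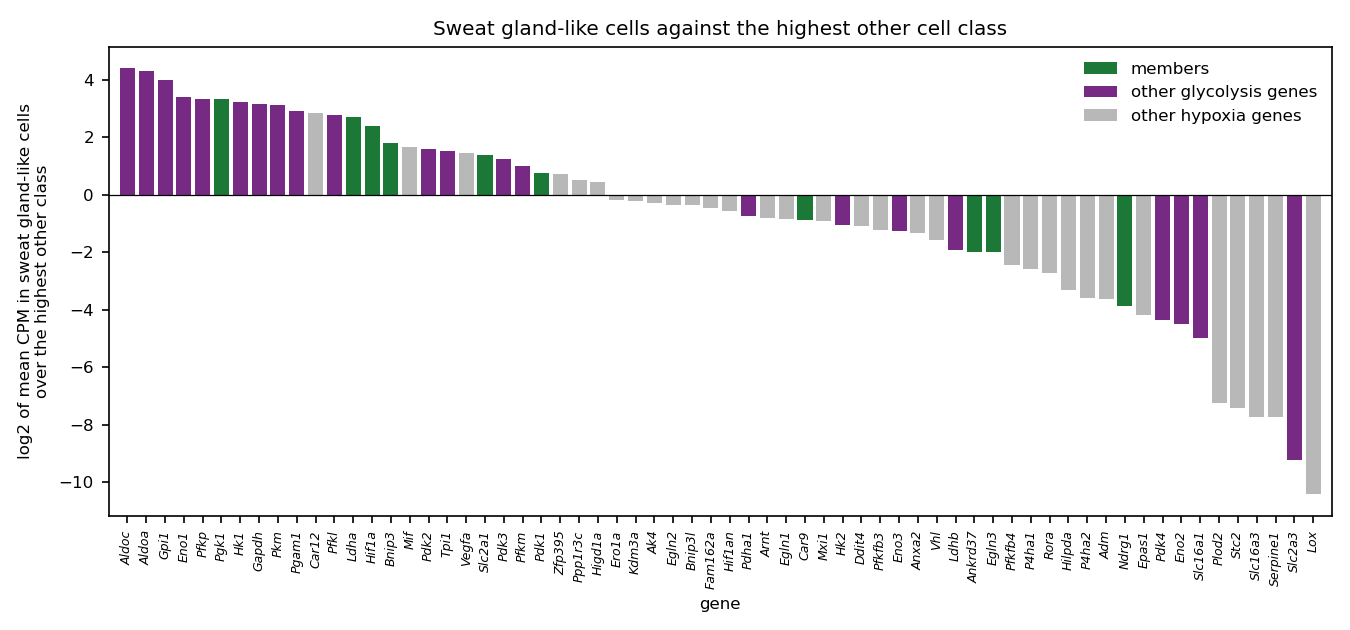
The log2 ratio of mean CPM in sweat gland-like cells over the mean of the highest other class, for the members and the other glycolysis and hypoxia genes in descending order. Bars above 0 mean that sweat gland-like cells have the highest mean, which holds for 6 members, 14 other glycolysis genes and 6 other hypoxia genes, and Hif3a, listed at 0 in sweat gland-like cells, has no bar.

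The remaining members peaked in other classes. Egln3, the HIF prolyl hydroxylase that is itself induced by HIF, was highest in granular keratinocyte-like cells, at 169.9 CPM (162 to 178) in SAR131675 diet, 218 (211 to 226) in diet control, 54.4 (48.8 to 60.5) in LNR and 54.0 (48.6 to 59.9) in LNR control. Nail or companion layer keratinocyte-like cells followed with 138, 156, 47.5 and 42.6 CPM and LECs, or lymphatic endothelial-like cells, with 101, 112, 46.4 and 36.2 CPM. The 3 classes overlapped, and the gap between experiments was wider than the gap between classes. Blood endothelial-like cells had less Egln3 than LEC-like cells in every library, 35.9, 43.3, 17.5 and 11.5 CPM. Fibroblast-like cells had the lowest mean, 2.78 CPM.

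Ankrd37, an ankyrin repeat gene and HIF target, was a low-level gene with a vascular peak. Mural-like cells, the pericytes and smooth muscle of vessels, had 38.5 CPM in SAR131675 diet, 25.3 in diet control, 37.5 in LNR and 20.8 in LNR control (30.5 ± 8.84). Blood endothelial-like cells had 26.0, 28.5, 19.5 and 19.3 CPM, which overlapped with the mural-like values. Car9, a carbonic anhydrase that acidifies the pericellular space and a common hypoxia marker in tumors, gave few counts, with 448 UMIs in SAR131675 diet, 301 in diet control, 130 in LNR and 143 in LNR control over all kept cells. The highest of the 20 classes, sebaceous-like cells, had 4.99, 6.38, 0.568 and 0.964 CPM, and its order of classes was not stable between settings.

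Ndrg1, a stress-induced gene that maintains myelin in Schwann cells, stood apart in Schwann-like cells. Its level there was 952 CPM (906 to 999.5) in SAR131675 diet, 1161 (1094 to 1231) in diet control, 915 (789 to 1055) in LNR and 1088 (949.8 to 1240.4) in LNR control (1029 ± 115), 2.32-fold that of the next class. LEC-like cells (443 ± 33.2) and blood endothelial-like cells (442 ± 103) followed and overlapped throughout. Dendritic or Langerhans-like cells split by experiment, with 419 and 509 CPM in the diet pair and 148 and 153 CPM in the LNR pair. Mast-like cells, named in the LNR pair alone, had 524 and 636 CPM. The range over classes was 82.8-fold, with suprabasal keratinocyte-like cells lowest at 12.4 CPM.

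**Figure D4:**
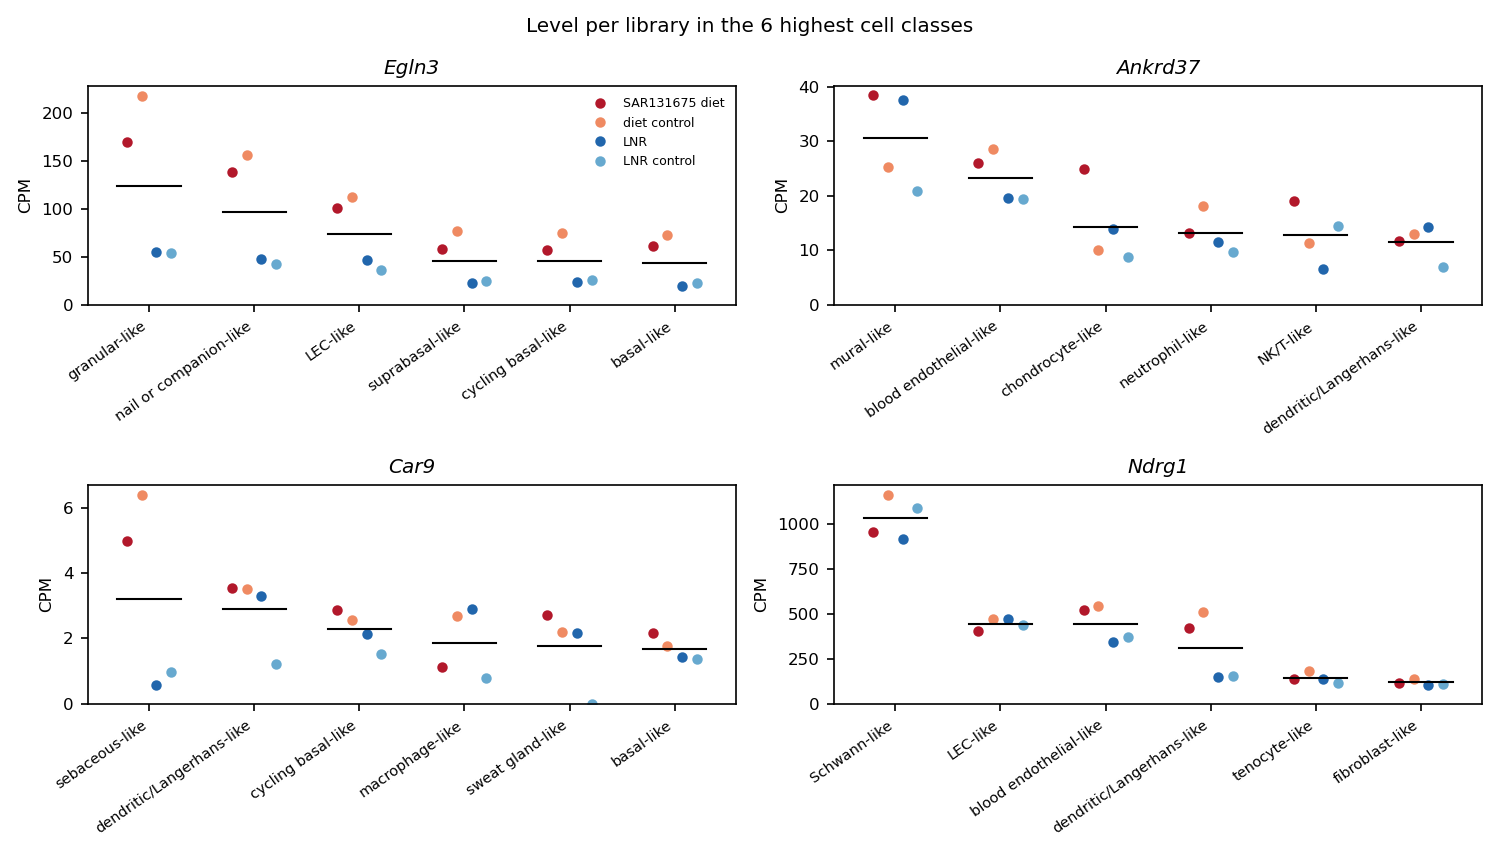
CPM (linear axis from 0) of Egln3, Ankrd37, Car9 and Ndrg1 in the 6 cell classes with the highest mean, with 1 point per library and a bar at the mean of the 4 libraries. Schwann-like points of Ndrg1 (915 to 1161 CPM) lie above those of every other class, whereas the leading classes of the other 3 genes overlap with the next, and Egln3 is higher in both diet libraries in each class drawn.

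Across 80 class-by-library values centered within each library, the profiles of Hif1a, Slc2a1, Ldha and Pgk1 were most like those of glycolysis genes. Of 13888 genes, the highest Pearson correlations were with Eno1 (0.94) and Pkm (0.92) for Ldha, with Eno1 (0.94) and Gapdh (0.94) for Pgk1, with Gapdh (0.88) and Pkm (0.87) for Hif1a and with Gapdh (0.82) and Pgk1 (0.80) for Slc2a1. Sec14l1 (0.83) and S100b (0.73) were nearest to Bnip3, Mdh1 (0.75) and Il17re (0.75) to Pdk1, Sik1 (0.64) and Ppp1r12a (0.63) to Ankrd37, Lactb (0.70) and Zbtb18 (0.67) to Car9, and Prex2 (0.83) and Gask1b (0.81) to Ndrg1. Car9, with 750 UMIs over the 20 classes, did not meet the limit of 100 UMIs set for the compared genes, so its correlations rest on few counts. Among the members, r was 0.90 between Ldha and Pgk1, 0.82 between Hif1a and Pgk1, 0.03 between Pdk1 and Bnip3 and 0.17 between Egln3 and Hif1a. The points share libraries, cell classes and depth, the first group has its highest values in the sweat gland-like points, and the correlations are descriptions.

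The diet and LNR experiments differed in UMIs per library, Cell Ranger version and surgery, and member levels differed between them by gene. Egln3 was higher in both diet libraries than in both LNR libraries in 13 of 13 classes with at least 100 UMIs, with a median log2 difference of 1.69. Slc2a1 was higher in 18 of 19 classes (median 1.04) and Hif1a in 17 of 20 (median 0.52), whereas Pgk1 was lower in the diet pair in 16 of 20 (median -0.36) and Ldha in 11 of 20 (median -0.14). Over all members, 56.5% of 154 gene-by-class levels were higher in both diet libraries, compared with 63.0% for all genes, and 20.1% were lower, compared with 20.7%. The parts of UMI totals, software and experiment in these differences cannot be told apart.

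SAR131675 diet was set against diet control to see what differed in digits regenerating under VEGFR3 blockade. Over all kept cells, no member differed by 0.5 or more on the log2 scale (0 of 10), a size that 7.21% of all 18944 genes reached. Hif1a was at 174 CPM in SAR131675 diet and 148 in diet control (log2 ratio 0.24, 0.22 to 0.25), and Pgk1 at 101 and 89.1 (0.18, 0.16 to 0.21). Egln3 was lower with SAR131675, 49.7 against 67.1 CPM (-0.43, -0.46 to -0.40), as were Pdk1, 33.2 against 39.4 (-0.25, -0.28 to -0.21), and Ndrg1, 62.0 against 69.0 (-0.15, -0.18 to -0.13). With each class weighted equally, the ratio was nearer to none for Egln3, at -0.19. It was -0.29 for Pdk1, -0.18 for Ndrg1, 0.15 for Hif1a and 0.12 for Pgk1. The log2 ratios of Slc2a1, Ldha, Bnip3, Ankrd37 and Car9 lay between -0.02 and 0.22. The median was 0.07 for the members and -0.01 for all genes.

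Within classes, 11 of 144 member-by-class ratios with at least 100 UMIs in the pair (7.64%) were at or past 0.5 in either direction, and 7.15% of all gene-by-class ratios were, a share close to that of the members. Pdk1 was lower with SAR131675 in 12 of 12 classes (-0.48 to -0.03). Of all gene-by-class ratios, 55.7% were below 0, which is a share of single ratios and not of genes lower in all their classes. The interval of Pdk1 was below 0 in 7 of the 12 classes, a count that cannot be weighed, since no share of such intervals over all genes is given here. Sebaceous-like cells, the class with the most Pdk1 per cell, had 49.5 against 69.0 CPM. Egln3 was lower in 10 of 13 classes and Ndrg1 in 14 of 17, while Hif1a was higher in 17 of 20 and Ldha in 16 of 20. No share of all genes with counts of this kind is given here to weigh them. Classes of a library are not independent samples, and the same 1 library per condition stands behind each of these counts.

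Ratios past 0.5 in the SAR131675 experiment were spread over many classes. Nail or companion layer keratinocyte-like cells had more Hif1a (605 against 406 CPM, log2 ratio 0.58, 0.46 to 0.69) and more Ndrg1 (48.2 against 22.0, 1.13, 0.65 to 1.64). Mural-like cells had more Pgk1 (76.9 against 53.1, 0.53, 0.28 to 0.80) and more Ankrd37 (38.5 against 25.3, 0.61, 0.23 to 0.99). Bnip3 was higher in chondrocyte-like cells (95.8 against 56.4, 0.76, 0.25 to 1.29) and in dendritic or Langerhans-like cells (33.7 against 21.0, 0.68, 0.11 to 1.28). The ratios below -0.5 were those of Ndrg1 in sebaceous-like (-0.86) and follicle keratinocyte-like cells (-0.54), Slc2a1 in Schwann-like (-0.59) and neutrophil-like cells (-0.56) and Egln3 in sebaceous-like cells (-0.55). The share of all genes past 0.5 differed by class, with 33.3% in neutrophil-like cells, 11.1% in Schwann-like cells and 4.80% to 9.86% in the other classes named here. Hif1a, Pgk1, Ldha and Slc2a1 had their highest class level in sweat gland-like cells. There, Hif1a was lower with SAR131675 (-0.34, -0.41 to -0.27), and Pgk1 was lower by less (-0.19, -0.27 to -0.11). Ldha (0.01, -0.05 to 0.07) and Slc2a1 (-0.06, -0.23 to 0.11) had intervals that included 0.

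**Figure D5:**
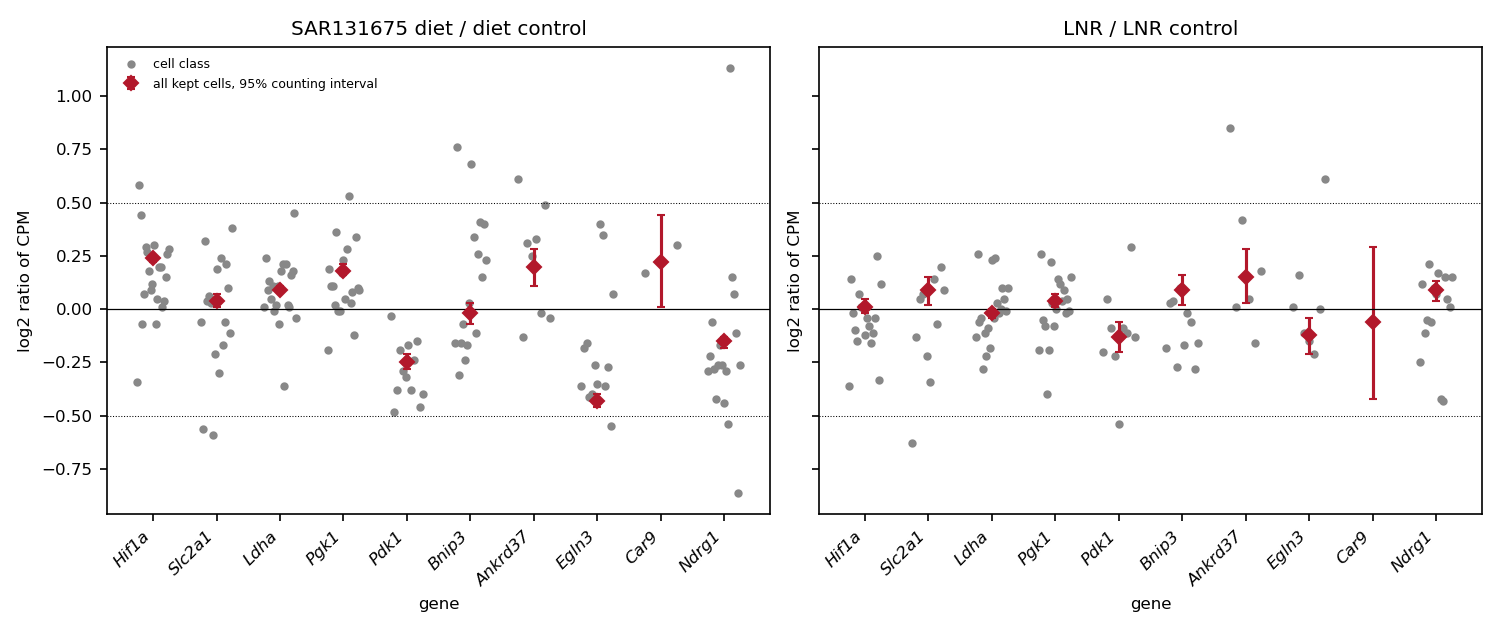
The log2 ratio of CPM of SAR131675 diet over diet control (left) and of LNR over LNR control (right) for each member, with 1 gray point per cell class that had at least 100 UMIs in the pair and a red diamond with its 95% counting interval for all kept cells. The dotted lines mark 0.5 and -0.5, which no diamond reaches, and Pdk1 has its 12 points below 0 on the left.

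LNR was set against LNR control, the surgical counterpart of the drug. Over all kept cells, 0 of 10 members differed by 0.5 or more, a size that 3.41% of all genes reached, and the log2 ratios ran from -0.13 (-0.20 to -0.06) for Pdk1 to 0.15 (0.03 to 0.28) for Ankrd37. Pdk1 was at 23.8 CPM in LNR and 26.1 in LNR control, Egln3 at 15.9 and 17.4, and Hif1a at 103 and 102. Within classes, 4 of 111 ratios (3.60%) were at or past 0.5, and 3.61% of all gene-by-class ratios were. They were Ankrd37 in mural-like cells (37.5 against 20.8 CPM, log2 ratio 0.85, 0.25 to 1.49), Egln3 in blood endothelial-like cells (17.5 against 11.5, 0.61, 0.06 to 1.17), Slc2a1 in sweat gland-like cells (221 against 340.3, -0.63, -1.03 to -0.22) and Pdk1 in nail or companion layer keratinocyte-like cells (28.5 against 41.5, -0.54, -1.06 to -0.02).

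Ankrd37 in mural-like cells was the member-by-class ratio past 0.5 in the same direction in both experiments, with 0.61 and 0.85, and it rests on 33 to 194 UMIs per library. It was 1 of 110 member ratios counted in both, and 0.298% of all gene-by-class ratios counted in both passed 0.5 that way. Hif1a in sweat gland-like cells was lower in the treated library in both, with -0.34 and -0.36, short of 0.5. No share of all genes at that size is given here. Slc2a1 (-0.06 and -0.63), Pgk1 (-0.19 and -0.19) and Bnip3 (-0.16 and -0.18) were also lower there in both, and Ldha was not (0.01 and -0.13). The intervals of Pgk1 lay below 0 in both (-0.27 to -0.11 and -0.34 to -0.03). Those of Bnip3 included 0 in both (-0.36 to 0.03 and -0.63 to 0.28), as did that of Slc2a1 with SAR131675 (-0.23 to 0.11). Of the markers of that class, Krt8 and Krt18 were lower in both treated libraries, and Aqp5 and Slc12a2 were higher. The drop was thus not particular to Hif1a. Among the other pathway genes, 0 of 33 hypoxia genes and 0 of 22 glycolysis genes passed 0.5 over all kept cells in the SAR131675 experiment, compared with 7.21% of all genes. In the LNR experiment 2 of 32 hypoxia genes (6.25%) did, both upward, compared with 3.41% of all genes and 2.28% upward. They were Stc2 (5.45 against 3.82 CPM, log2 ratio 0.51, 0.36 to 0.67) and Slc16a3 (5.68 against 3.90, 0.54, 0.39 to 0.70), and 0 of 22 glycolysis genes did. Neither was higher in LNR within its leading class. Stc2 was at 368 against 373 CPM in chondrocyte-like cells, and Slc16a3 at 179.8 against 196 in neutrophil-like cells. By class, Stc2 was past 0.5 upward in 0 of 2 and Slc16a3 in 1 of 2 classes. LNR held 147 chondrocyte-like cells against 97, and 373 neutrophil-like cells against 276. The part of cell numbers in these ratios was not tested. In both experiments and the same direction, 0 of 32 hypoxia genes, 0 of 22 glycolysis genes and 0 of 10 members passed 0.5, compared with 0.469% of all genes.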

How the data were processed

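Single-cell suspensions of P3 digit tissue were profiled by the authors with 10x Genomics chemistry, and raw UMI counts per gene and barcode were deposited for 4 libraries, with no barcode under 500 UMIs. The file headers name Cell Ranger 8.0.1 for the diet pair and 6.1.2 for the LNR pair, and the labels name the latter and build GRCm39 for all libraries. Gene coordinates were therefore not taken from the files, and promoter coordinates are those of RefSeq on GRCm38.p6. Columns that could not be tied to a library numbered 0.

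Barcodes with 200 to 5500 genes, at most 30000 UMIs and at most 10% mitochondrial UMIs were kept. Each pair was clustered on its own (2000 variable genes without the members and pathway genes, 30 components, 20 neighbors, Leiden resolution 0.7), and clusters with markers of 2 or more lineages were clustered again, which was decided after seeing values. A cluster was named at a marker score of at least 0.4 with 3 or more markers in at least 5% of its cells, if its 10 leading genes by fold held markers of that list and of no other list more. Clusters that scored on several lineages (other than connective tissue ones) or came nearly all from 1 library were left unnamed. Called doublets (0.907% to 7.41% by Scrublet, 15.9% to 23.3% expected) were left in, and free RNA was not removed. CPM carries exact 95% Poisson intervals and log2 ratios carry exact conditional ones, and no test was made, since each condition has 1 library. The statistics were tested on simulated data. The members, gene lists and markers were chosen with earlier results of these data known. Named were all 10 members, pathway genes past 0.5 in both experiments (up to 5, none found), the up to 10 pathway genes with the highest ratio of leading to next class and the 2 genes nearest to each member in profile (for Egln3 not reported here), and genes beyond this were named after their values were seen. The tools were Python 3.11.15 with scanpy 1.11.5, pandas 2.3.3, scipy 1.17.1, numpy 2.4.6, igraph 0.11.9 and matplotlib 3.10.9.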

Additional observations from a re-analysis of the deposited data

Results flagged for a closer look

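Ndrg1 over all kept cells moved in opposite directions in the 2 experiments. Its log2 ratio was -0.15 (95% counting interval -0.18 to -0.13) for SAR131675 diet over diet control, with 62.0 against 69.0 CPM, and 0.09 (0.04 to 0.13) for LNR over LNR control, with 58.7 against 55.3 CPM. With 1 library per condition the difference between the experiments was not tested, and both ratios are small. By class, the interval lay below 0 in 10 and above 0 in 1 of 17 classes with SAR131675, and below 0 in 2 and above 0 in 0 of 15 with LNR. No share of such intervals over all genes is given here to weigh these counts. The mean of the class ratios was -0.18 and -0.02, without an opposite direction. Their median was -0.26 and 0.05, with 3 of 17 classes higher with SAR131675 and 9 of 15 with LNR. Whether the directions were opposite when classes counted equally thus depended on the summary. Over all kept cells, the ratios were -0.14 and 0.08 with no upper cell limits, -0.18 and 0.10 with called doublets removed, -0.17 and 0.05 with cells thinned to 1500 UMIs and both 0.02 with cells thinned to 500 UMIs.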

How the results depend on the processing

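No paired analysis was possible because each group holds 1 library, and leaving out a library leaves a condition without a value. The first clustering without a second round and the thinning to 500 UMIs were chosen after seeing the data, as was the repeat of the pathway gene count under each alternative. The 6 members with a class that stands apart became 6 at resolution 1.2 and with a minimum of 20 UMIs, 5 with median-of-ratios scaling and with cells thinned to 500 UMIs, 2 with cells classed by their own markers, 1 with no upper cell limits, 1 with called doublets removed, 1 with the first clustering and 0 with cells thinned to 1500 UMIs. Judged within a pair of libraries, where 56.1% to 57.6% of all genes had such a class, the count was 9 in either pair. In the 5 settings with the lowest counts, sweat gland-like cells of the LNR pair numbered under 50 in at least 1 library, and with the first clustering they numbered 0 in both. The 10 members that kept their leading class became 3, 4, 4, 3 and 2 with no upper cell limits, with doublets removed, with the first clustering, with thinning to 1500 UMIs and with own markers. The 24 pathway genes with a class that stands apart became 9, 11, 9, 8 and 13 in the same order. Car9, with few UMIs, lost its lead in sebaceous-like cells, with log2 ratios to the highest other class of -1.28 with no upper cell limits, -1.11 at resolution 1.2, -0.13 with median-of-ratios scaling and -0.63 with own markers. The cause was not tested.

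Of the ratios past 0.5, the SAR131675 count of 11 became 27 of 176 (background 17.9%) at a minimum of 20 UMIs, 4 of 64 (6.64%) with thinning to 1500 UMIs, 6 of 83 (8.51%) with own markers and 1 of 144 (0.771%) at a limit of 1. The LNR count of 4 became 23 of 159 (15.4%), 2 of 50 (3.50%), 2 of 68 (4.34%) and 0 of 111 (0.475%) in the same order, and 8 of 116 (3.89%) at resolution 1.2, a share above the background there. Thinning to 500 UMIs gave 8 of 40 (7.43%) with SAR131675 and 3 of 31 (3.67%) with LNR. The first clustering gave 14 of 141 (6.98%) and 6 of 113 (3.56%). Removal of doublets gave 13 of 129 (7.16%) and 3 of 103 (3.53%). No upper cell limits gave 9 of 147 (6.98%) and 6 of 113 (3.47%). Median-of-ratios scaling gave 12 of 144 (7.03%) and 3 of 111 (3.58%). Some member shares across these settings were above the background and others were below it. Over all kept cells, 12 of 19 log2 ratios kept their direction when each class was weighted equally. In that setting Hif1a was at -0.05 with LNR, Slc2a1 at -0.03 with SAR131675 and -0.08 with LNR, Bnip3 at 0.13 and -0.10, Egln3 at 0.04 with LNR and Ndrg1 at -0.02 with LNR. Thinning to 1500 UMIs turned Slc2a1 to -0.07 with SAR131675 and Car9 to 0.55 with LNR. Thinning to 500 UMIs turned Bnip3 to 0.05 and Ndrg1 to 0.02 with SAR131675, and Hif1a to -0.00, Slc2a1 to -0.01, Pgk1 to -0.02 and Ankrd37 to -0.05 with LNR. Ratios this near 0 have no stable sign, and depth limits Car9 throughout.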

Other observations

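Some of the highest Slc2a1 levels lay outside the named classes. A cluster of 62 LNR and 59 LNR control cells, led by Itih5, Sbspon, Cpxm2, Slc2a1 and Gatm, had Slc2a1 at 1476 CPM (1341 to 1620.4) in LNR and 989 CPM (866 to 1125) in LNR control. A cluster of the diet pair with 23 SAR131675 diet and 21 diet control cells, led by Itih5, Luzp2, Gpc6 and Sbspon, had it at 1473 CPM (1302 to 1661) and 2024 CPM (1822 to 2242), and its Ndrg1 was at 1127 and 1197 CPM. Another cluster of that pair with 40 and 36 cells, led by Sfrp5 and Nr2f2, had Slc2a1 at 416 and 726 CPM. In each of these clusters and libraries Slc2a1 was above its level in every named class of that library. Car9 was also measured in unnamed clusters. It was at 4.24 CPM (2.32 to 7.12) in 298 LNR cells and 6.47 CPM (3.95 to 9.98) in 300 LNR control cells of a cluster led by Akr1c18, Gsta3 and Pparg, on 14 and 20 UMIs, against at most 3.31 and 1.66 CPM in the 20 classes with at least 50 cells in every library. Monocyte-like cells of LNR control, a smaller class, lay above that 1.66 CPM on 1 UMI in 46 cells. In a cluster of 56 LNR and 45 LNR control cells led by Mmp3, Timp1 and Tnn it was at 8.40 CPM (2.73 to 19.6) and 1.97 CPM (0.05 to 11.0), on 5 and 1 UMIs. The clusters did not meet the conditions for a name, and their values were looked at after the results for the named classes were known.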
